A study of Mus musculus with 6 samples.

Results

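The subject was the open chromatin at 7 mouse genes, the Th2-associated receptors Il1rl1, Ccr8, Ccr4, Il17rb and Ptgdr2, the growth factor Areg and the nuclear receptor Pparg. Every listed ATAC-seq peak that carried the symbol of one of these genes was taken, which gave 31 peaks of 282898, or 7 genes of the 19109 that had a peak. ATAC-seq measures open chromatin with a transposase that cuts accessible DNA and adds sequencing adaptors to it. The libraries were made from T follicular helper (Tfh) cells of Stat6 knockout (KO) and Stat6 wild-type (WT) C57BL/6 mice, all untreated, sorted ex vivo into populations called Tfh4, Tfh214 and Tfh21. Each genotype and population gave 1 library, so there were 6 libraries and no replicates of a condition. The cells of a library were pooled, since 10 mice were used per genotype, and 50000 cells went into each library. The part of Stat6 that the knockout lacks, the tissue and the markers of the sort were not given in the sources used here.

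STAT6 is the transcription factor that IL-4 receptor signalling activates, and it drives the Th2 programme of CD4 T cells. Several surface receptors mark Th2 cells and their innate counterparts: the receptors for the alarmins IL-33 and IL-25 (Il1rl1, which encodes ST2, and Il17rb), the chemokine receptors Ccr4 and Ccr8, and the prostaglandin D2 receptor Ptgdr2 (CRTH2). Amphiregulin, an EGF receptor ligand that such cells release, acts in tissue repair, and the lipid-responsive nuclear receptor PPARγ has a part in the Th2 response of mice. Tfh cells make IL-4 and IL-21 for germinal centre B cells, and several of these receptors are also carried by regulatory T cells. The comparisons asked whether the loci were more or less open without Stat6 and between the populations.

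The libraries held 798555 to 1238585 reads in peaks for KO cells and 1122701 to 1373218 for WT cells. The values were deposited by the authors as CPM, scaled to the total in the listed peaks, and whole reads were recovered from them. Summed over 10 T cell marker genes, all with peaks, levels were 441 to 604 CPM in KO libraries and 444 to 471 CPM in WT libraries, and over 10 Tfh markers, again all with peaks, 480 to 661 and 461 to 581 CPM. Of 10 B cell markers 8 had peaks, and their sum was 170 to 237 CPM in KO libraries and 187 to 265 CPM in WT libraries, with Tfh4 the highest in each genotype. Of 8 regulatory T cell markers 8 had peaks (468 to 605 CPM in KO libraries, 447 to 497 CPM in WT libraries), of 10 myeloid markers 9 had (115 to 129 and 133 to 143 CPM), and of 8 mast cell and basophil markers 5 had (77.6 to 104 and 83.0 to 91.2 CPM, with 2 genes at 0 in a library). Bulk accessibility does not tell fewer open cells from less open chromatin per cell, and the part of other cell types in the values below was not tested. Reads at transcription start sites (TSS) took 29.7%, 34.9% and 36.4% in KO Tfh4, KO Tfh214 and KO Tfh21, against 27.6%, 31.0% and 31.5% in WT Tfh4, WT Tfh214 and WT Tfh21, a shift that moves the CPM of start-site peaks between libraries. Ratios are therefore also given after median-of-ratios scaling (size factors from the median ratio over peaks that average 20 reads or more) where that turns a call. Before scaling, gene sums without start-site peaks had median log2 effects in the fit below of -0.08 for KO over WT. For Tfh4 over Tfh21 and Tfh4 over Tfh214 these were 0.13 and 0.12. The scaling moves ratios further in those directions, so it widens the shift at Il1rl1 and Ptgdr2, which had no start-site peak.

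Most peaks at these genes held few reads, as did most peaks of the series, 90.0% of which had under 30. The 31 peaks held 10 to 136 reads over the 6 libraries together, with a median of 16, against a median of 14 over all peaks, and 17 of the 31 had a read in every library. Of the 31 peaks, 9 lay at a TSS (29.0%, against 13.5% of all peaks with a symbol), 8 in 5' UTR exons, 7 in introns, 5 in coding exons, 1 in a 3' UTR exon and 1 at a transcription termination site. A start-site peak was listed for Ccr8, Ccr4, Il17rb, Areg and Pparg and not for Il1rl1 or Ptgdr2, and 5310 genes with peaks (27.8%) likewise had none. All coordinates of peaks are in mm9.

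Promoter sequences are shown for the genes whose start-site peaks held most of their reads (Areg, Ccr8, Ccr4 and Il17rb) and for Il1rl1, which had no start-site peak. They are RefSeq sequences of build GRCm38.p6, from 250 bases before the start to 50 after it, 5' to 3' on the strand of the gene. The builds differ and no position was converted, so the windows were not laid over the peaks. Capitals mark motif matches found on either strand: TGACGTCA (CRE) and TATAAA in Areg, AGATAA or its reverse complement (GATA) in Ccr8 and Il1rl1, and TGANTCA (AP-1) in Ccr4 and Il17rb. The Il1rl1 sequence is that of the second of its RefSeq starts.
Areg, chr5:91139349-91139648, plus strand: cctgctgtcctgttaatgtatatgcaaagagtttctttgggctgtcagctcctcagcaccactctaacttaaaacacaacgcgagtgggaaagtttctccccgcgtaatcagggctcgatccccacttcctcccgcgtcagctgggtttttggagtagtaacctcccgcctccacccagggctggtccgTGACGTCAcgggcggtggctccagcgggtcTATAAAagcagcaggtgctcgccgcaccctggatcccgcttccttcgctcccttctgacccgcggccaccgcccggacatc
Ccr8, chr9:120091883-120092182, plus strand: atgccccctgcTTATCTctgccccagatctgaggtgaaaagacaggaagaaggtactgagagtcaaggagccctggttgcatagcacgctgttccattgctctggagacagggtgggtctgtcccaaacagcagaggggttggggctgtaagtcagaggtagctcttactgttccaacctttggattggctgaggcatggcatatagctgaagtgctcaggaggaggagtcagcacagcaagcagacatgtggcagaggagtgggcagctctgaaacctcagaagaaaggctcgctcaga
Ccr4, chr9:114496495-114496794, minus strand: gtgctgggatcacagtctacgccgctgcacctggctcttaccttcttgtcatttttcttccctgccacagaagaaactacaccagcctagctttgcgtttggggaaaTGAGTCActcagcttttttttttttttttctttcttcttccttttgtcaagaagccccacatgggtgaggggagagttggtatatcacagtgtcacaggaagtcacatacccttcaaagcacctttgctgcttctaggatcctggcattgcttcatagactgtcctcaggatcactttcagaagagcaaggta
Il17rb, chr14:30008847-30009146, minus strand: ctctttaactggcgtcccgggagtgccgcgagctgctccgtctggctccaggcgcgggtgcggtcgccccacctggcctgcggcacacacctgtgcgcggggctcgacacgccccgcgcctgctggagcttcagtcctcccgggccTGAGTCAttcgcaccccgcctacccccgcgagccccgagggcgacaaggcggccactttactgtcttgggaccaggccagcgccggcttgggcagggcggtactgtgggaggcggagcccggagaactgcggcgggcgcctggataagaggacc
Il1rl1, chr1:40439379-40439678, plus strand: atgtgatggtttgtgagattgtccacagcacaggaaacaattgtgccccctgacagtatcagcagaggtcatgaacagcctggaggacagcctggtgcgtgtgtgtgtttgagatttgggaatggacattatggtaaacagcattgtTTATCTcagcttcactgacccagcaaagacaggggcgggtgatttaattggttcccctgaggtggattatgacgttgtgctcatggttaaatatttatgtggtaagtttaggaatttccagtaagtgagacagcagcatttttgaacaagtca
RefSeq gave 10 promoters for the 7 genes. The Areg window had a CRE at -61 and a TATA box motif at -31 from the start, with a GC content of 59.3% and 21 CpG, while Ccr8 had a GATA match at -239 with a GC content of 54.0% and 2 CpG, and Ccr4 an AP-1 match at -143 with 46.3% and 3 CpG. Il17rb had its AP-1 match at -104. The other matches were a GATA at -217 of the other Il1rl1 promoter (38.7% GC, against 44.7% in the one shown, whose GATA lay at -103) and a TATA at -29 of the second Pparg promoter. Among all 32851 RefSeq mouse promoters, 1.79% held the CRE letters, 7.81% the AP-1, 11.2% the GATA and 13.6% the TATA letters. TTCNNNNGAA and TTCNNNGAA, spaced palindromes that STAT proteins bind, the first of them the spacing known for STAT6, stood in 6.95% and 8.30% of all promoters and in 0 of these 10 windows, which says only that those letters are not in the 300 bases searched. The promoters of Il17rb (72.0% GC, 32 CpG) and the first of Pparg (80.3% GC, 44 CpG) were CpG-rich, against medians of 52.7% and 7 CpG over all promoters.

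Per kb of listed peak, the order of openness was Ccr8, Areg, Ccr4, Ptgdr2, Il17rb, Il1rl1 and Pparg. Ccr8 averaged 24.6 ± 6.11 CPM per kb (SD over the 6 libraries), a level above 87.0% of genes with peaks, and Areg 19.8 ± 3.90 CPM per kb, above 81.0%. Ccr4 stood at 12.3 ± 3.88, Ptgdr2 at 9.81 ± 7.53 and Il17rb at 6.84 ± 2.04 CPM per kb. Il1rl1 at 4.29 ± 1.36 and Pparg at 4.05 ± 0.921 CPM per kb were above only 16.4% and 11.5% of genes, with reads spread over 3441 and 6275 bases of peak. Ccr8 ran from 18.9 to 32.4 and Areg from 14.4 to 25.3 CPM per kb, so these neighbours in the order overlapped, as did Ccr4 with Ptgdr2 and Il17rb, and Il1rl1 (2.91 to 6.10) with Pparg (3.34 to 5.59). Ptgdr2, with 1 peak of 19 reads, ran from 3.15 to 20.6 CPM per kb and overlapped every other gene, so its place in the order is unsettled. Il17rb, from 4.30 to 9.79 CPM per kb, overlapped Il1rl1 and Pparg too. The lowest Ccr8 library lay above the highest Ccr4 library, at 16.5 CPM per kb.

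**Figure D1:**
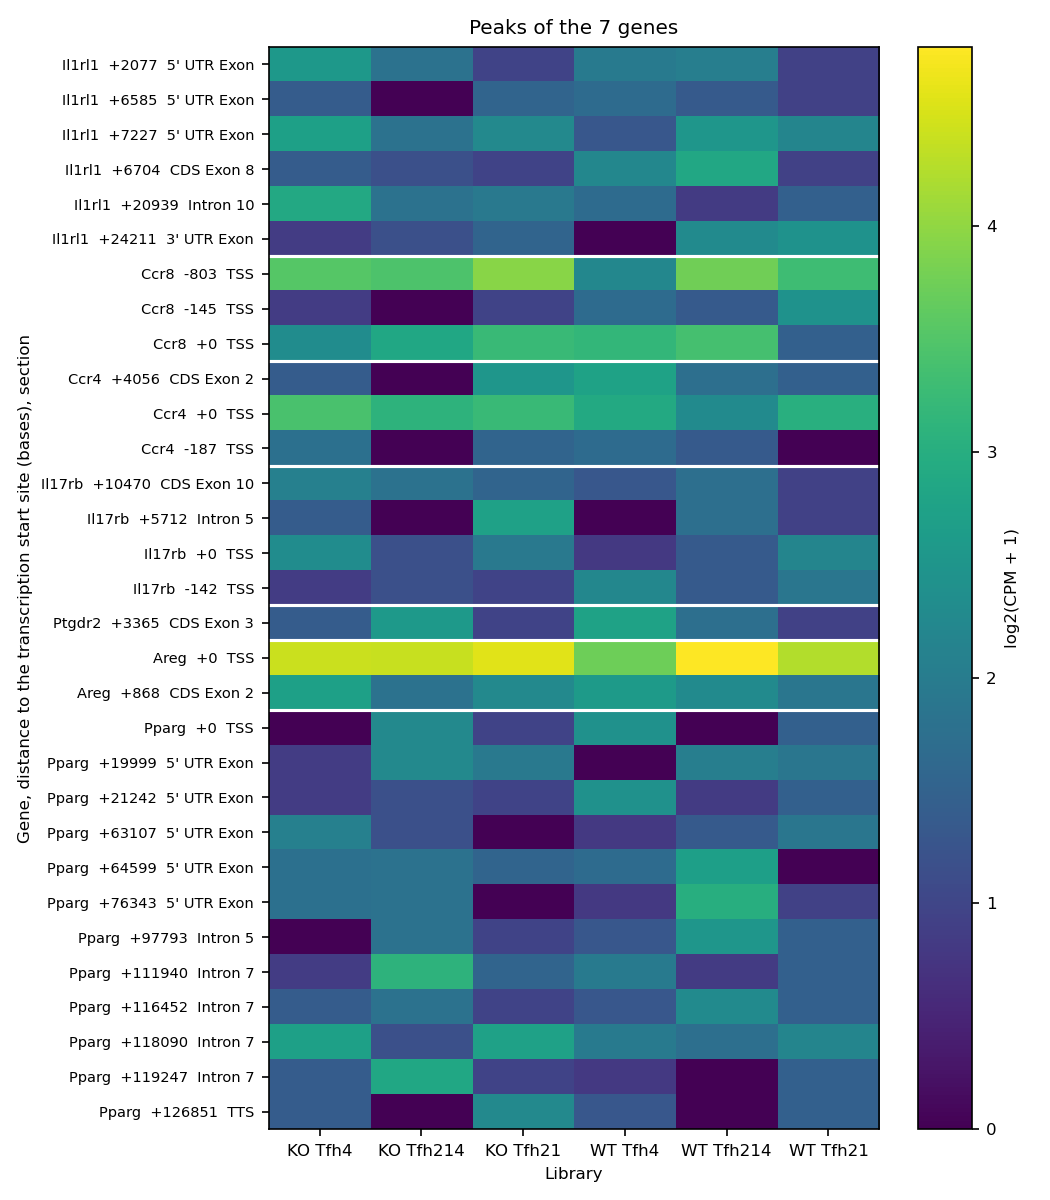
Deposited accessibility of the 31 peaks in the 6 libraries, as log2(CPM + 1) in colour, with 1 row per peak labelled by gene, distance to the transcription start site in bases and gene section, KO libraries left of WT. The Areg start-site peak is the brightest row in every library, and most other rows hold few reads.

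The sum over all 31 peaks was 108.2 CPM in KO Tfh4 (134 reads), 101.4 CPM in KO Tfh214 (81 reads) and 111.3 CPM in KO Tfh21 (117 reads), against 93.2 CPM in WT Tfh4 (128 reads), 122.7 CPM in WT Tfh214 (156 reads) and 88.2 CPM in WT Tfh21 (99 reads). The KO values thus lay inside the range of the WT values. Pooled over populations, KO over WT was 1.06 (exact binomial 95% interval 0.910 to 1.23) from 332 KO and 383 WT reads, and 0.931 (0.801 to 1.08) after median-of-ratios scaling. These intervals, and all below, cover counting error only and say nothing of animals. The reads split almost evenly into 359 at start sites and 356 elsewhere.

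Within each population, the genes were measured at 1.5-fold where the higher library held at least 20 reads, with fold changes of CPM + 1. In KO Tfh4 over WT Tfh4, 1 of the 4 genes so measured was higher (Il1rl1), against 4.55% of all genes measured, and 0 were lower, against 7.19%. In KO Tfh214 over WT Tfh214, 0 of 4 were higher, against 4.57%, and 1 was lower (again Il1rl1), against 6.34%. In KO Tfh21 over WT Tfh21, 1 of 3 was higher (Ccr8), against 4.77%, and 0 were lower, against 5.02%. Il1rl1 had no start-site peak, and of gene sums without such peaks 5.93% were higher in Tfh4 and 15.6% lower in Tfh214. All Ccr8 peaks were start-site peaks, and of gene sums over those only 8.29% were higher in Tfh21. After median-of-ratios scaling the Il1rl1 call in Tfh4 and the Ccr8 call in Tfh21 were lost, with 0 of the genes past 1.5-fold in either population, and in Tfh214 there were 2, with Il1rl1 and Ccr8 lower. All genes then split into 1.96% higher and 13.2% lower in Tfh4, 1.77% and 10.7% in Tfh214, and 1.47% and 10.9% in Tfh21. With 3 or 4 genes measured, 1 gene is a small count, and 0 of the 21 counting intervals of KO over WT excluded 1, against 7.62%, 5.59% and 5.79% of genes in Tfh4, Tfh214 and Tfh21.

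**Figure D2:**
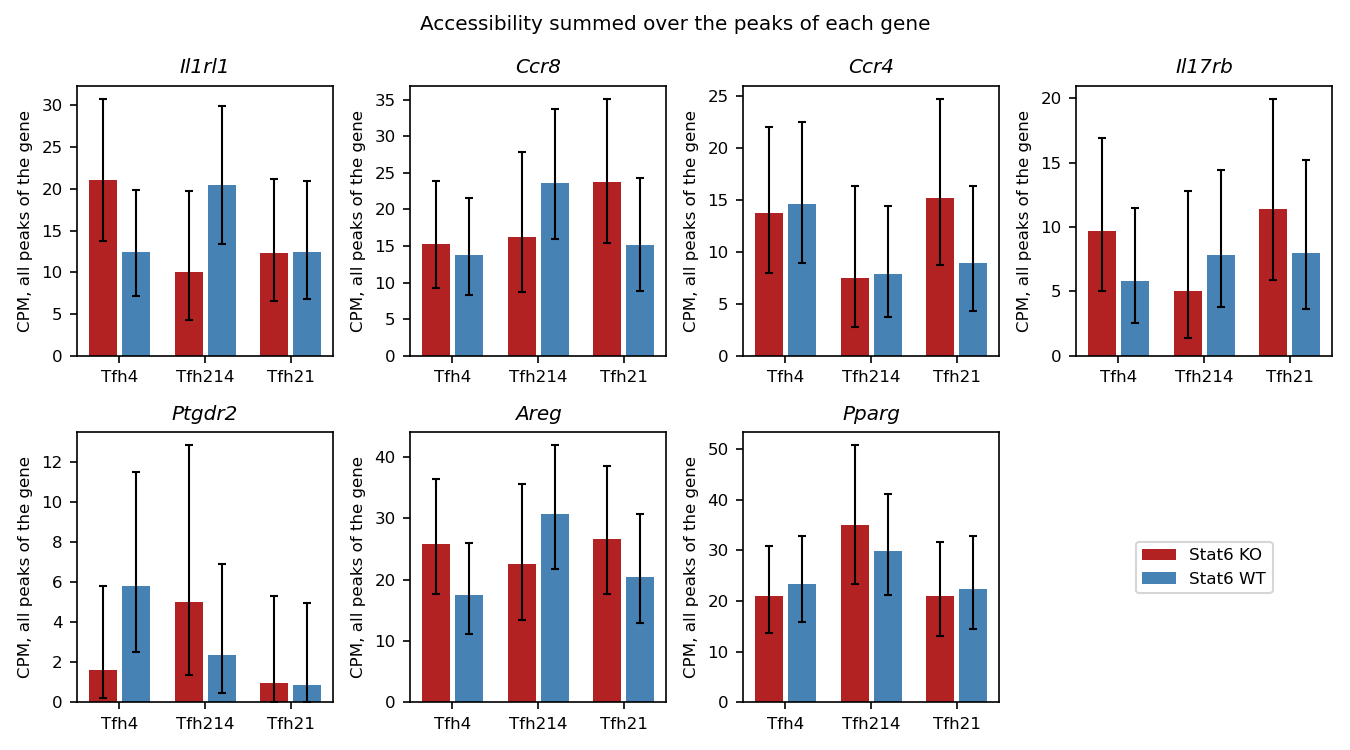
CPM summed over the peaks of each gene, in KO (red) and WT (blue) libraries of each population, with exact Poisson 95% intervals that cover counting error. Il1rl1 is higher in KO Tfh4 than in WT Tfh4 and lower in KO Tfh214 than in WT Tfh214, and the intervals of KO and WT overlap in every panel.

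Il1rl1 encodes ST2, the receptor for IL-33. Its 6 peaks on chromosome 1 lay in 5' UTR exons, coding exon 8, intron 10 and the 3' UTR, with none holding more than 24.0% of its reads. The sums were 26 reads (20.99 CPM) in KO Tfh4, 8 reads (10.02 CPM) in KO Tfh214 and 13 reads (12.4 CPM) in KO Tfh21, against 17 reads (12.4 CPM) in WT Tfh4, 26 reads (20.4 CPM) in WT Tfh214 and 14 reads (12.5 CPM) in WT Tfh21. KO Tfh4 and WT Tfh214 were the high libraries and KO Tfh214 the low one, while Tfh21 was level in KO and WT. KO over WT was 1.70 (0.886 to 3.33) in Tfh4, 0.490 (0.192 to 1.11) in Tfh214 and 0.992 (0.429 to 2.27) in Tfh21. After median-of-ratios scaling the Tfh214 ratio was 0.438 (0.171 to 0.995), which excluded 1 by a narrow margin. That scaling lowers every KO over WT ratio.
The quotient of the Tfh4 and Tfh214 ratios was 3.46, and its exact conditional estimate was 3.38 (95% interval 1.16 to 10.8 for counting error). Of the 7 genes this was 1 whose interval excluded 1 for Tfh4 over Tfh214, against 5.48% of all genes, and 0 did for Tfh4 over Tfh21, against 4.45%, and for Tfh214 over Tfh21, against 3.16%. In all, 1 of 21 did. Over the 6 libraries the variance of Il1rl1 was 1.66 times what counting gives, against a median of 1.14 for genes with a like number of reads, 70.2% of which were lower. Peak by peak, the 5' UTR peak at chr1:40488492-40489046 lay 2077 bases after the start of its transcript. It held 6, 2 and 1 reads in KO Tfh4, KO Tfh214 and KO Tfh21, against 4, 4 and 1 in WT Tfh4, WT Tfh214 and WT Tfh21. The peak with the most reads, a 5' UTR peak at chr1:40493642-40494409, held 7, 2 and 4 KO reads against 2, 6 and 4 WT reads in that order. The intron 10 peak at chr1:40517413-40518053 held 8, 2 and 3 KO reads against 3, 1 and 2 WT reads in that order, and the coding exon 8 peak at chr1:40503178-40503874 held 2, 1 and 1 KO reads against 5, 8 and 1 WT reads. In Tfh4, KO over WT was 2.96 (0.710 to 17.3) at the intron and 0.443 (0.0422 to 2.71) at the exon. Both intervals cross 1, so these counts cannot tell whether the peaks differ in direction. In Tfh214 the intron 10 peak was the only one with a higher CPM in KO than in WT. The last peak, at chr1:40520685-40521109, ended 1298 bases before the first listed peak of Il18r1, the IL-18 receptor gene that follows Il1rl1.

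Ccr8 encodes the receptor for CCL1 and, in mice, CCL8. All 3 of its peaks, on chromosome 9, were start-site peaks. Its sums were 19 reads (15.3 CPM) in KO Tfh4, 13 (16.3 CPM) in KO Tfh214 and 25 (23.8 CPM) in KO Tfh21, against 19 (13.8 CPM) in WT Tfh4, 30 (23.6 CPM) in WT Tfh214 and 17 (15.1 CPM) in WT Tfh21. KO Tfh21 and WT Tfh214 were the high libraries, and KO and WT overlapped. KO over WT was 1.11 (0.555 to 2.21) in Tfh4, 0.690 (0.330 to 1.36) in Tfh214 and 1.57 (0.815 to 3.10) in Tfh21.
The peak at chr9:120000048-120000448, ending at -803 from the start, held 13, 8 and 15 reads in KO Tfh4, KO Tfh214 and KO Tfh21, against 5, 16 and 10 in WT Tfh4, WT Tfh214 and WT Tfh21. The peak over the start itself, at chr9:120001106-120001341, held 5, 5 and 9 KO reads, against 11, 12 and 2 WT reads in that order. A peak that abuts it, at chr9:120001008-120001106, held 1, 0 and 1 KO reads, against 3, 2 and 5 WT reads. Its pooled KO over WT ratio was 0.244 (0.0260 to 1.14). The peak ending at -803, here called the upstream peak, held more reads than the start peak in every library except WT Tfh4. Among the peaks without a symbol within 50000 bases of the gene, the strongest lay 17325 bases before the transcript at chr9:119983580-119983926. It held 14, 14 and 20 reads in KO Tfh4, KO Tfh214 and KO Tfh21, against 19, 21 and 15 in WT Tfh4, WT Tfh214 and WT Tfh21. That is 103 reads in all, more than any Ccr8 peak, with a pooled KO over WT ratio of 1.06 (0.708 to 1.60).

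Ccr4 encodes the receptor for CCL17 and CCL22. It had 3 peaks on chromosome 9, a pair that abut at the start and 1 in coding exon 2, and 74.7% of its reads were at the start. Its sums were 17 reads (13.7 CPM) in KO Tfh4, 6 (7.51 CPM) in KO Tfh214 and 16 (15.2 CPM) in KO Tfh21, against 20 (14.6 CPM) in WT Tfh4, 10 (7.86 CPM) in WT Tfh214 and 10 (8.91 CPM) in WT Tfh21. By CPM, Tfh214 was the lowest population in each genotype. WT Tfh214 and WT Tfh21 held the same 10 reads, however, with a ratio of 0.883 (0.330 to 2.36). KO over WT was 0.942 (0.464 to 1.89) in Tfh4, 0.956 (0.285 to 2.90) in Tfh214 and 1.71 (0.729 to 4.21) in Tfh21. At the start peak, chr9:114405641-114405850, there were 12, 6 and 9 reads in KO Tfh4, KO Tfh214 and KO Tfh21, against 9, 5 and 8 in WT Tfh4, WT Tfh214 and WT Tfh21.

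Il17rb encodes a subunit of the IL-25 receptor. Its 4 peaks on chromosome 14 held 12, 4 and 12 reads in KO Tfh4, KO Tfh214 and KO Tfh21 (9.69, 5.01 and 11.4 CPM), against 8, 10 and 9 in WT Tfh4, WT Tfh214 and WT Tfh21 (5.83, 7.86 and 8.02 CPM). KO over WT was 1.66 (0.625 to 4.69) in Tfh4, 0.637 (0.146 to 2.21) in Tfh214 and 1.42 (0.551 to 3.83) in Tfh21. Its variance over the libraries was 0.734 times that of counting. The start-site peak at chr14:30822074-30822225 held 5, 1 and 3 KO reads, against 1, 2 and 4 WT reads in the order Tfh4, Tfh214 and Tfh21.

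Ptgdr2 encodes the prostaglandin D2 receptor CRTH2, by which Th2 cells are often sorted in humans. Its only peak, in coding exon 3 at chr19:11015015-11015298, held 2, 4 and 1 reads in KO Tfh4, KO Tfh214 and KO Tfh21, against 8, 3 and 1 in WT Tfh4, WT Tfh214 and WT Tfh21. The most reads were in WT Tfh4 and the fewest in the Tfh21 libraries. A count of 3 reads stood for 2.18 to 3.76 CPM, so all but WT Tfh4 and KO Tfh214 were at or under that level. With the populations pooled, KO over WT was 0.712 (0.237 to 1.96) from 7 KO and 12 WT reads.

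Areg, the EGF receptor ligand, had the peak with the most reads of the 31, though per kb its 33.5 CPM lay next to the 34.6 CPM of the Ccr4 start peak. This start-site peak of Areg at chr5:91568256-91568853, from -369 to 228 bases around the start, held 25, 16 and 24 reads in KO Tfh4, KO Tfh214 and KO Tfh21, against 17, 34 and 20 in WT Tfh4, WT Tfh214 and WT Tfh21. With 136 reads it was stronger than 97.2% of all peaks and 68.7% of start-site peaks, and it took 82.9% of the reads of the gene. The second peak, in coding exon 2 at chr5:91569493-91570108, held 7, 2 and 4 KO reads, against 7, 5 and 3 WT reads. The gene sums were 25.8, 22.5 and 26.6 CPM in KO Tfh4, KO Tfh214 and KO Tfh21, against 17.5, 30.7 and 20.5 CPM in WT Tfh4, WT Tfh214 and WT Tfh21, so that the KO values all fell within the WT range. KO over WT was 1.48 (0.844 to 2.62) in Tfh4, 0.735 (0.396 to 1.32) in Tfh214 and 1.30 (0.722 to 2.36) in Tfh21.

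Pparg, which encodes a nuclear receptor for fatty acid ligands, had 12 peaks on chromosome 6 over the body of the gene, the strongest with 14.6% of its reads. Its sums were 26, 28 and 22 reads in KO Tfh4, KO Tfh214 and KO Tfh21 (20.99, 35.1 and 20.9 CPM), against 32, 38 and 25 reads in WT Tfh4, WT Tfh214 and WT Tfh21 (23.3, 29.9 and 22.3 CPM). Tfh214 was the highest population in each genotype, and KO over WT stayed close to 1, at 0.901 (0.516 to 1.56), 1.17 (0.694 to 1.96) and 0.940 (0.505 to 1.74) in Tfh4, Tfh214 and Tfh21. Its start-site peak at chr6:115310807-115311150 was weak, with 0, 3 and 1 reads in KO Tfh4, KO Tfh214 and KO Tfh21, against 6, 0 and 2 in WT Tfh4, WT Tfh214 and WT Tfh21, and 7.02% of all Pparg reads. Of the 4 intron 7 peaks, chr6:115424307-115424880 held 1, 6 and 2 KO reads against 4, 1 and 2 WT reads, and chr6:115431614-115431919 held 2, 5 and 1 KO reads against 1, 0 and 2 WT reads, in the order Tfh4, Tfh214 and Tfh21. KO Tfh214 had the highest CPM at each of these. At chr6:115430457-115430826 it was the lowest library, with 7, 1 and 6 KO reads against 4, 3 and 4 WT reads, and at chr6:115428819-115429338, with 2, 2 and 1 KO reads against 2, 5 and 2 WT reads, WT Tfh214 was the highest.

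Peak by peak, KO over WT excluded 1 at 1 of the 31 peaks in Tfh4 (the Pparg start), against 3.63% of all peaks, at 2 in Tfh214 (the Pparg intron 7 peaks where KO Tfh214 was highest), against 2.14%, and at 0 in Tfh21, against 1.65%. Pooled over populations, 0 of 31 peaks and 0 of 7 genes excluded 1 for KO over WT, against 5.97% of peaks and 10.6% of genes. The pooled gene ratios were 1.01 (0.669 to 1.51) for Il1rl1, 1.05 (0.726 to 1.52) for Ccr8, 1.19 (0.745 to 1.90) for Ccr4, 1.27 (0.719 to 2.23) for Il17rb, 1.11 (0.804 to 1.52) for Areg and 0.976 (0.712 to 1.33) for Pparg. The interval was narrowest for Areg and Pparg, which held the most reads of the 7 genes, and widest for Ptgdr2.

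**Figure D3:**
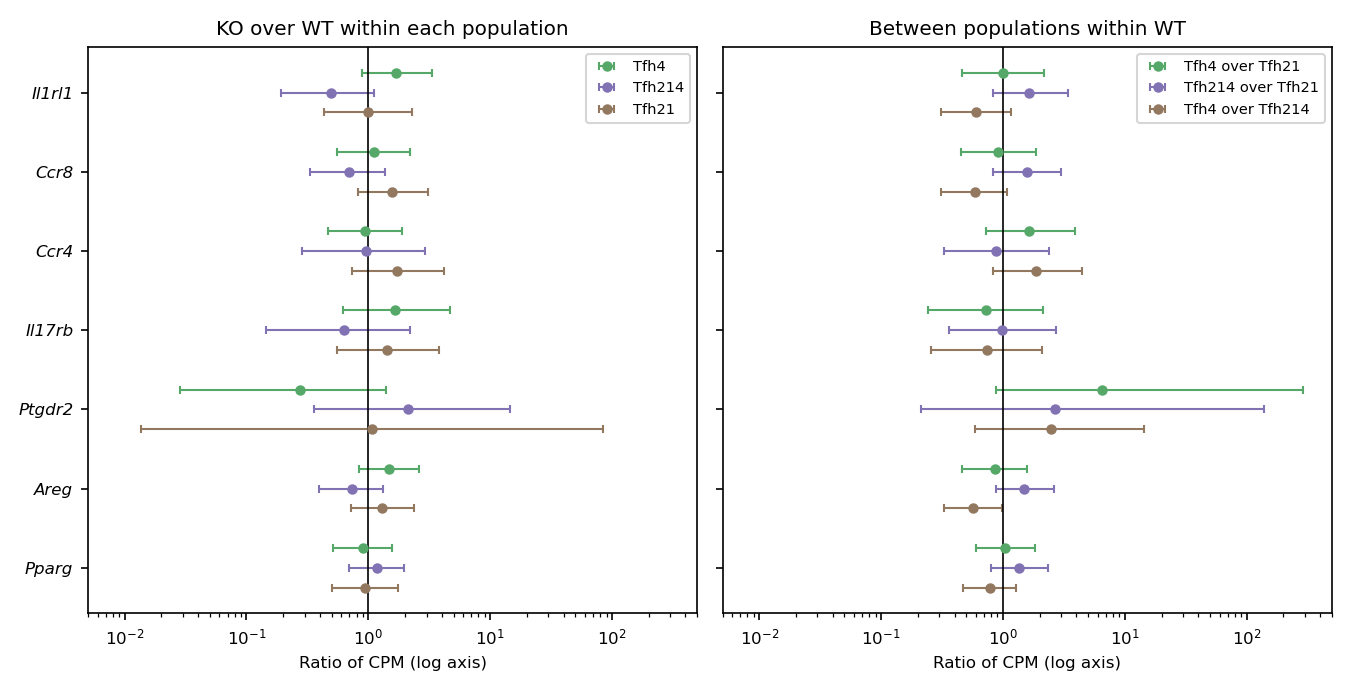
Ratio of CPM for each gene on a log axis, with exact binomial 95% intervals for counting error: KO over WT in Tfh4, Tfh214 and Tfh21 (left) and between populations of WT cells (right). Every KO over WT interval crosses 1, and in WT cells only the Areg interval of Tfh4 over Tfh214, 0.328 to 0.972, does not.

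Among the WT populations, Tfh214 had the highest CPM at Il1rl1, Ccr8, Areg and Pparg, and Tfh4 the highest at Ccr4 and Ptgdr2. At 1.5-fold, 2 of 4 genes measured were higher in WT Tfh214 than in WT Tfh21 (Il1rl1 and Ccr8), against 4.62% of genes, and 0 lower, against 3.94%. Of gene sums without start-site peaks, as at Il1rl1, 9.46% were higher in that pair, and of sums over start-site peaks only, as at Ccr8, 2.75%. For WT Tfh4 over WT Tfh214, 3 of 5 were lower (Il1rl1, Ccr8 and Areg), against 5.28%, and 1 was higher (Ccr4), against 7.2%. After median-of-ratios scaling none of these 3 was past 1.5-fold any longer (folds of CPM of 0.716, 0.694 and 0.674) and Ccr4 still was, with 16.8% of all genes higher and 1.62% lower. Before scaling, 5.03% of gene sums without start-site peaks and 10.4% of those over start-site peaks only were lower in that pair. For WT Tfh4 over WT Tfh21, 1 of 3 was higher (Ccr4), against 6.54%, and 0 lower, against 4%, and with that scaling Ccr4 was again the 1 gene higher, where 15.2% of all genes were higher and 0.856% lower. Ptgdr2, too low to be measured in this way, had 8 reads in WT Tfh4 and 1 in WT Tfh21, a ratio of 6.54 (0.877 to 290), or 7.77 (1.04 to 345) after scaling, which raises every ratio of this pair. These 3 comparisons share libraries.
Among all genes, the interval excluded 1 for 9.67% in KO Tfh4 over KO Tfh21, 3.46% in KO Tfh214 over KO Tfh21 and 6.1% in KO Tfh4 over KO Tfh214, and for 6.12%, 4.81% and 8.78% in the WT pairs in that order. Of the 42 ratios of the 7 genes 1 did so, the Areg ratio of WT Tfh4 over WT Tfh214, at 0.570 (0.328 to 0.972), and after median-of-ratios scaling it was 0.674 (0.388 to 1.15) and no longer excluded 1. Il1rl1 had 0.606 (0.308 to 1.16) and Ccr8 0.587 (0.312 to 1.08) in that pair, and Ccr4 1.85 (0.827 to 4.43). At single peaks of that pair the interval excluded 1 at 4 of 31, against 3.52% of all peaks: the Areg start with 17 and 34 reads, or 0.463 (0.243 to 0.852), the upstream Ccr8 peak with 5 and 16, or 0.289 (0.0829 to 0.827), the Pparg start with 6 and 0, and the Pparg 5' UTR peak at chr6:115388710-115389385 with 1 and 9. For WT Tfh214 over WT Tfh21 it did at 3 of 31, against 2.7%, among them the Ccr8 start peak with 12 and 2 reads, or 5.30 (1.18 to 48.7). For WT Tfh4 over WT Tfh21 it did at 1, against 2.27%, the Il1rl1 3' UTR peak with 0 and 5 reads.

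For KO Tfh4 over KO Tfh21, 1 of 4 genes measured was higher (Il1rl1), against 7.23%, and 1 lower (Ccr8), against 7.8%. For KO Tfh214 over KO Tfh21, 1 of 3 was higher (Pparg), against 3.12%, and 0 lower, against 4.98%. For KO Tfh4 over KO Tfh214, 1 of 3 was higher (Il1rl1), against 6.65%, and 1 lower (Pparg), against 5.63%. Of gene sums without start-site peaks, as at Il1rl1, 20.7% were higher in KO Tfh4 over KO Tfh21 and 18.0% in KO Tfh4 over KO Tfh214. Of gene sums over start-site peaks only, as at Ccr8, 14.7% were lower in KO Tfh4 over KO Tfh21. After median-of-ratios scaling the lower calls of Ccr8 and Pparg were lost and the higher ones of Il1rl1 kept, where 16.4% of all genes were higher in KO Tfh4 over KO Tfh21 and 1.51% lower, and 13.6% and 1.35% in KO Tfh4 over KO Tfh214. The Il1rl1 ratios were 1.70 (0.841 to 3.60) over KO Tfh21 and 2.10 (0.921 to 5.35) over KO Tfh214, and after median-of-ratios scaling 2.12 (1.05 to 4.49) and 2.47 (1.09 to 6.32), which excluded 1. That scaling raises every ratio of KO Tfh4 over the other KO populations, also at genes without a start-site peak. Pparg was 1.68 (0.924 to 3.07) in KO Tfh214 over KO Tfh21. Single peaks of KO libraries excluded 1 at 0 of 31 for Tfh4 over Tfh21 (2.42% of all peaks), 0 for Tfh214 over Tfh21 (1.26%) and 1 for Tfh4 over Tfh214 (2.21%), the Pparg intron 7 peak at chr6:115424307-115424880 with 1 and 6 reads.
With genotypes pooled, 0 of the 7 genes excluded 1, against 12.3% of genes for Tfh4 over Tfh21, 5.83% for Tfh214 over Tfh21 and 9.48% for Tfh4 over Tfh214. Ccr4 had 37 reads in Tfh4 and 16 in Tfh214, a ratio of 1.83 (0.995 to 3.53), or 2.14 (1.16 to 4.13) after median-of-ratios scaling. Pparg had 66 reads in Tfh214 and 47 in Tfh21, a ratio of 1.47 (0.999 to 2.19), or 1.54 (1.04 to 2.28) after it. Ptgdr2 had 10 reads in Tfh4 and 2 in Tfh21, a ratio of 4.16 (0.887 to 39.1), or 5.07 (1.08 to 47.6) after it. Summed over the 7 genes, Tfh4 over Tfh21 was 1.01 (0.840 to 1.21), or 1.23 (1.02 to 1.48) after it. The share of all genes with an interval that excluded 1 after this scaling was not computed, here or for single pairs. In the fit below, this scaling moved the median log2 effect of all genes tested to 0.19 for Tfh4 over Tfh21. That median was 0.18 for Tfh4 over Tfh214 and 0.02 for Tfh214 over Tfh21. At single peaks the pooled interval excluded 1 at 1 of 31 for Tfh4 over Tfh21, against 4.65% of all peaks (the Il1rl1 3' UTR peak, 1 and 7 reads), at 2 for Tfh214 over Tfh21, against 3.51%, and at 3 for Tfh4 over Tfh214, against 5.34%, with the other peaks all in Pparg. Of these, chr6:115388710-115389385 held 4 reads in Tfh4, 11 in Tfh214 and 1 in Tfh21.

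limma was used to fit log2(CPM + 1) on genotype plus population for 13527 genes with a mean of at least 10 reads, among them 5 of the 7, since Il17rb and Ptgdr2 averaged 9.17 and 3.17 reads. It leaves 2 residual degrees of freedom per gene, and its moderated variances borrow from the other genes. Its p-values measure spread between these 6 libraries, not between animals. For genotype it called 6 genes (0.0444%), 1 higher and 5 lower in KO, and with median-of-ratios scaling 227, 1 higher and 226 lower, and none of the 5 here in either. The KO over WT effects were log2 0.16 ± 0.23 (SE) for Areg (adjusted p = 0.840), 0.19 ± 0.34 for Ccr4 (0.875), 0.08 ± 0.27 for Ccr8 (0.945), -0.08 ± 0.32 for Il1rl1 (0.952) and -0.0019 ± 0.21 for Pparg (0.999), against a median of 0.05 over all genes tested. Each was smaller than its SE, and with median-of-ratios scaling Areg and Ccr8 turned to -0.02 and -0.10, where the median of all genes was -0.13. At single peaks, 77 of 8986 were called (0.857%), all higher in KO, with a median effect of 0.19 over the peaks tested. Of the 31 peaks only the Areg start peak had enough reads, a mean of at least 20, and its effect was 0.20 ± 0.23 (limma adjusted p = 0.612).
Between populations limma called 0 genes in each of 3 contrasts, with unadjusted p under 0.05 for 1589 (Tfh4 over Tfh21), 713 (Tfh214 over Tfh21) and 1276 (Tfh4 over Tfh214), and edgeR called 1, 0 and 0 and DESeq2 0. The largest effects of the 5 genes were 0.80 ± 0.42 for Ccr4 in Tfh4 over Tfh214 (limma adjusted p = 0.563), 0.56 ± 0.26 for Pparg (0.930) and -0.55 ± 0.42 for Ccr4 (0.962) in Tfh214 over Tfh21, and -0.53 ± 0.26 for Pparg in Tfh4 over Tfh214 (0.538).

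**Figure D4:**
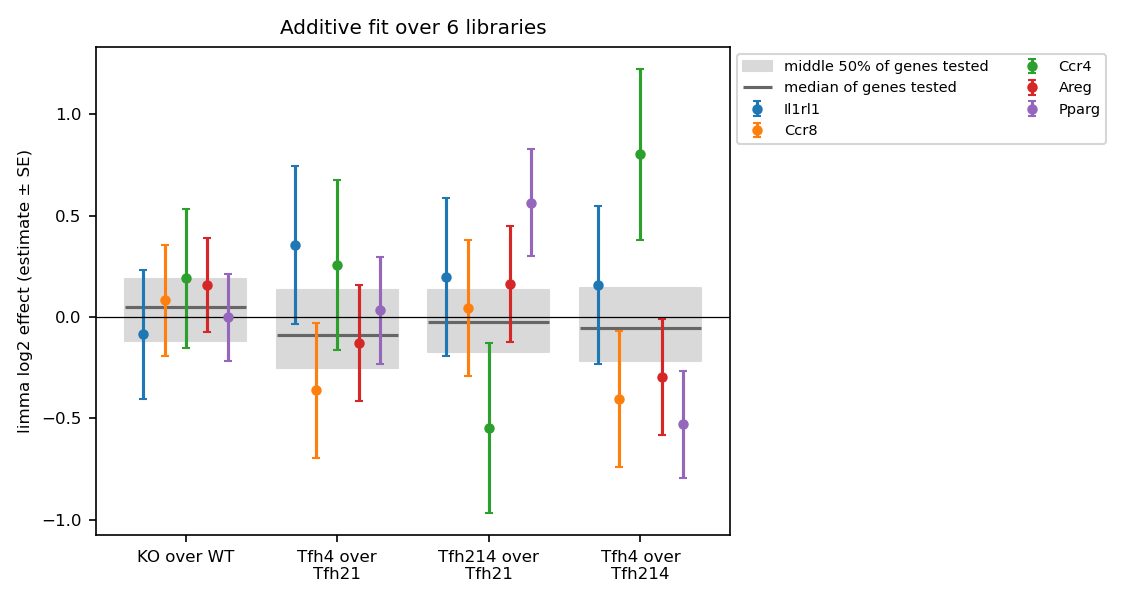
limma log2 effects (± SE) of the 5 genes with enough reads, for KO over WT and for 3 contrasts of populations, over a grey box for the middle 50% of genes tested and a line at their median. The KO over WT effects lie near 0, and the effects farthest from 0 are those of Ccr4 (0.80 and -0.55) and Pparg (0.56 and -0.53) in the contrasts that involve Tfh214.

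Genes that act with these receptors were not called either. Of 80 genes in 8 lists of ligands, partners and Th2 regulators, 72 had a peak, 53 had enough reads for the fit and 0 passed it for genotype or for any population contrast, where 0.0444% of all genes did for genotype. By list, 11 of 12 genes of the IL-33 and IL-1 receptor cluster were tested, with a median log2 effect for KO over WT of -0.03, 4 of 6 of the IL-25 and TSLP pathway (0.09), 7 of 14 other chemokine receptors (0.14), 1 of 5 of the prostaglandin D2 pathway (0.16), 5 of 8 EGF family genes (0.05), 10 of 10 PPAR partners and targets (-0.08) and 15 of 21 Th2 cytokines and regulators (0.14), against 0.05 over all genes. No gene of the 4 CCR4 and CCR8 ligands had enough reads, with 5.71 to 10.5 CPM summed over the list in KO libraries and 5.34 to 9.44 CPM in WT libraries. The largest effect was at Tgfa, which like Areg encodes an EGF receptor ligand, with 5.65, 6.26 and 6.66 CPM in KO Tfh4, KO Tfh214 and KO Tfh21, against 13.8, 16.5 and 11.6 CPM in WT Tfh4, WT Tfh214 and WT Tfh21. The limma effect of Tgfa was log2 -1.05 ± 0.37 with an unadjusted p of 0.00802 and an adjusted p of 0.345. Ppard, a widely expressed relative of Pparg, had 58.1, 66.4 and 81.8 CPM in the KO libraries, against 89.6, 84.1 and 90.9 CPM in the WT libraries in the order Tfh4, Tfh214 and Tfh21 (-0.37 ± 0.13, limma adjusted p = 0.345).
The other genes with the highest or lowest KO over WT effect of their list had adjusted p of 0.499 or more in limma. Fabp4, a PPARγ target in fat cells, had 0.48 ± 0.25 and Cxcr6, a chemokine receptor of tissue T cells, 0.49 ± 0.36. Crlf2, a subunit of the TSLP receptor, had 0.20 ± 0.10 and Hpgds, which makes prostaglandin D2, 0.16 ± 0.13. Il18r1 had 0.18 ± 0.18, Egf 0.15 ± 0.13 and Stat6 itself 0.28 ± 0.15. On the low side, Myd88, the adaptor below ST2, had -0.37 ± 0.38, Il7r, which pairs with Crlf2, -0.03 ± 0.43, Ccr6 -0.20 ± 0.33 and the Th2 regulator Bhlhe41 -0.57 ± 0.41.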

How the data were processed

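The authors deposited 1 list of peaks with CPM values for the 6 libraries, each column relative to its own reads in peaks. The submitters' processing notes name Bowtie 1.3.0, MACS2 2.0, HOMER and mm9. Pooling for the peak calls, the handling of duplicates and any transposase shift are not given in the sources. The headers of the gene fields are offset, and the symbol was read from the field headed as gene ID. All TSS peaks were within 999 bases of a start site.

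Whole reads were recovered from the CPM step of 1 read, with at least 99.9989% of values within 0.02 reads of a whole number, and reads and CPM were summed per gene. The 7 genes, the pathway and marker lists and the tests were chosen with earlier results of these data known. From each pathway list the genes with the highest and lowest KO over WT effect were named, any called gene, and the 3 genes most like the sum of the 7.

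Ratios carry exact binomial and levels exact Poisson 95% intervals. PCR copies are not independent, and these intervals cover counting error only. A pair of libraries has no replicate and got no p-value. limma 3.58.1 was run with a variance trend on log2(CPM + 1), which understates the change of low genes. Its p-values were adjusted by Benjamini-Hochberg and called at 0.05. They measure spread between these 6 libraries, and genotype and pool of mice cannot be told apart. As alternatives, edgeR 4.0.16 (quasi-likelihood, TMM) and DESeq2 1.42.0 used the recovered reads. Fits were tested on simulated data. Scripts ran in R 4.3.3 and in Python 3.11.15 (scipy 1.17.1, numpy 2.4.6, pandas 2.3.3).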

Additional observations from a re-analysis of the deposited data

Results flagged for a closer look

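The estimated KO over WT ratio of Il1rl1 differed between Tfh4 and Tfh214. It was 1.70 in Tfh4 (26 KO and 17 WT reads) and 0.490 in Tfh214 (8 KO and 26 WT reads), a quotient of 3.46. The exact conditional estimate of that quotient was 3.38, with a 95% interval of 1.16 to 10.8, or 3.37 (1.15 to 10.8) after median-of-ratios scaling. It was the only one of 21 such comparisons of the 7 genes whose interval excluded 1. Of all genes, 5.48% had such an interval between Tfh4 and Tfh214, 4.45% between Tfh4 and Tfh21 and 3.16% between Tfh214 and Tfh21. A count of 1 in 21 is near those shares and does not set the 7 genes apart. The interval covers counting error only, and with 1 library for each genotype and population the difference was not tested over animals. KO Tfh214, the library with 8 reads, was also the shallowest, at 798555 reads in peaks, and its part in the result was not tested.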

How the results depend on the processing

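None of the 5 genes fitted was called for genotype in 99 estimates, counted per gene and alternative (lowest adjusted p 0.365), nor between populations in 252 (0.209), nor the Areg start peak in 18 (0.235). No paired analysis was possible because the labels give no replicate numbers. KO and WT libraries were matched by the population term, without which 8 genes and 2 peaks were called for genotype. Depth, with 19 to 171 reads per gene, limits every ratio. The cause of the changes below was not tested.

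The number of genes called for genotype, 6 here, was 227 (1 higher and 226 lower) with median-of-ratios scaling, which moved the median effect of all genes to -0.13 for genotype, 0.19 for Tfh4 over Tfh21 and 0.18 for Tfh4 over Tfh214. It was 72 without both Tfh4 libraries, 23 without both Tfh214 libraries, 54 with start-site peaks only, 11 with no minimum of reads, 1 with DESeq2 and 0 without the variance trend. Leaving out 1 library gave 4 (WT Tfh21) to 89 (KO Tfh4), with 78, 27 and 18 without WT Tfh4, KO Tfh214 and WT Tfh214. For Tfh4 over Tfh21, 0 here, there were 564 with median-of-ratios scaling, 50 without both Tfh214 libraries, 60 with start-site peaks, 54 with the strongest peak only, 1 with edgeR and 1 with no minimum, and 0 to 108 leaving out 1 library. For Tfh4 over Tfh214, 0 here, there were 138, 79 and 88 with that scaling, start-site peaks and the strongest peak, 1 with no minimum, and 0 to 35 leaving out 1 library, and for Tfh214 over Tfh21 0 to 17. Of single peaks, 77 here, 256 were called without both Tfh214 libraries, 49 without both Tfh4, 2 without both Tfh21, 273 with the minimum of reads doubled and 40 with it halved, 17 with no minimum, 2 with median-of-ratios scaling, 2 with no population term, 1 with edgeR, 0 with DESeq2 and 0 without the trend, and 2 to 287 leaving out 1 library.

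At 2-fold, 0 of the 3 to 5 genes measured in a pair passed in any of the 9 pairs. Of all genes measured, 1.36% to 2.98% passed in either direction. Il17rb and Ptgdr2 held too few reads to be measured at that setting, so it says nothing of them. With 10 reads in the higher library, 2 genes passed for KO over WT in Tfh4 and 2 in Tfh21 (16.6% and 15.1% of all genes), 3 for KO Tfh214 over KO Tfh21 (13.6%) and 4 for KO Tfh4 over KO Tfh214 (18.4%), each of 6 measured, and the counts of the other 5 pairs stayed. With median-of-ratios scaling KO over WT gave 0, 2 and 0 in Tfh4, Tfh214 and Tfh21, and the population pairs with another count gave 1 each, where 8.12% to 18.4% of all genes passed over the 9 pairs. With start-site peaks only, without them, or with the strongest peak, the counts that moved were 0 to 2. In these settings only 1 or 2 of the 7 genes were measured in a pair. Of all genes, 5.50% to 15.0% passed with start-site peaks only, 16.8% to 26.5% without them and 5.56% to 15.3% with the strongest peak.

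Effects turned sign between settings, also those of some pairs past 1.5-fold. For genotype, the log2 effect was -0.023 for Areg and -0.096 for Ccr8 with median-of-ratios scaling. It was -0.032 for Areg (-0.029 for its start peak) and 0.069 for Pparg without both Tfh4 libraries, -0.069 for Ccr4, -0.18 for Ccr8 and 0.040 for Pparg without both Tfh21 libraries, and 0.35 for Il1rl1 without both Tfh214 libraries. Pparg was 0.057 without start-site peaks and 0.00079 with a pseudocount of 4. Leaving out 1 library gave -0.032 to 0.45 for Areg, -0.069 to 0.33 for Ccr4, -0.18 to 0.38 for Ccr8, -0.49 to 0.35 for Il1rl1, -0.11 to 0.069 for Pparg and -0.029 to 0.50 for the Areg peak. For Tfh4 over Tfh21, Areg was 0.14 with median-of-ratios scaling and -0.42 to 0.16 leaving out 1 library, Pparg -0.020 without start-site peaks and -0.073 to 0.14, Ccr4 -0.13 to 0.65, Ccr8 -0.76 to 0.040 and Il1rl1 -0.25 to 0.96. For Tfh214 over Tfh21, Ccr8 was -0.0079 with its strongest peak and -0.40 to 0.49 leaving out 1 library, Areg -0.28 to 0.60 and Il1rl1 -0.46 to 0.85. For Tfh4 over Tfh214 these ranges were -0.73 to 0.15 for Areg, -0.85 to 0.039 for Ccr8 and -0.50 to 0.82 for Il1rl1. Among pairs, the log2 ratio of Areg in WT Tfh4 over WT Tfh214 went from -0.78 to 0.31 without its start-site peak (7 and 5 reads). Ccr4 in WT Tfh4 over WT Tfh21 went from 0.65 to -0.11 with the strongest peak (9 and 8 reads). Pparg with its strongest peak went from 0.72 to -1.57 in KO Tfh214 over KO Tfh21 (1 and 6 reads). In KO Tfh4 over KO Tfh214 it went from -0.71 to 1.56 (7 and 1 reads).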

Other observations

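The summed accessibility of the 7 genes over the 6 libraries was followed most closely by Bmpr1a (Pearson r = 0.976), Adam17 (0.966) and Cd2ap (0.966), among 10822 genes with a mean of at least 20 reads, as a description over 6 points that share depth and scaling. Bmpr1a encodes a BMP receptor, Adam17 the protease that sheds amphiregulin from the cell surface, and Cd2ap an adaptor that binds CD2. In all, 43 genes had an r over 0.9.

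Within 50000 bases of the transcripts lay peaks without a gene symbol, 20 around Ccr8, 19 around Pparg, 14 around Ccr4, 12 around Il1rl1, 12 around Areg, 7 around Il17rb and 7 around Ptgdr2. Besides the one upstream of Ccr8, the strongest was at chr14:30759970-30760416 near Il17rb, with 14, 2 and 13 reads in KO Tfh4, KO Tfh214 and KO Tfh21, against 12, 7 and 11 in WT Tfh4, WT Tfh214 and WT Tfh21. Its 59 reads were more than the 55 of all Il17rb peaks together, and KO over WT was 1.18 (95% interval for counting error 0.683 to 2.03). At Areg the strongest lay 32586 bases before the transcript, at chr5:91535267-91536039, with 4, 6 and 7 KO reads, against 3, 12 and 6 WT reads in that order.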
